A study of Drosophila melanogaster with 10 samples.

Results

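The salivary glue genes are the genes of the secretory proteins that the larval salivary glands of Drosophila melanogaster make in the third instar. The group held here the Sgs genes Sgs1, Sgs3, Sgs4, Sgs5, Sgs5bis, Sgs7 and Sgs8 and the new glue genes ng1, ng2 and ng3, chosen by gene symbol. All 10 were found in the platform annotation, each with 1 probe set of its own, among 11982 named genes and 18769 probe sets. A further probe set, which the annotation assigns to both ng1 and ng2, was not used. The values came from 10 Affymetrix arrays of 5 groups with 2 arrays each. Whole larvae made up 3 groups, namely Jarid2 mutants, animals labelled E(z) RNAi and controls, and eye-antenna disc cells made up the other 2, Jarid2 mutants and controls.

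Flies were raised at 25 °C. The labels give the mutant groups as the Minos insertion allele Jarid2MB00996 over the TM3 balancer. The sources do not say whether the animals sampled had 1 or 2 mutant copies, or whether they carried the balancer. The arrays labelled E(z) RNAi used a UAS-E(z)-RNAi transgene. The driver is not given, and their genotype field reads wild type. Control groups are labelled wild type. Larval RNA came from 20 whole larvae of the third instar per sample, so the glue transcripts were measured as a part of the whole animal. In such samples fewer salivary gland cells and less transcript per cell cannot be told apart. Disc RNA came from about 500 dissected discs per sample, dissociated and sorted by GFP, and came from larvae late in the third instar. Which GFP fraction was kept is not stated. No age in hours is given for the larvae.

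As background, glue proteins are heavily glycosylated or small secreted proteins that are stored in granules of the salivary gland. They are expelled at the onset of metamorphosis and fix the puparium to a surface. The steroid hormone ecdysone acts on these genes in a known order. The ng genes are active before most of the Sgs genes in the third instar, a low hormone pulse in the middle of that instar switches the Sgs genes on, and the high pulse at its end switches them off. The Eig71E genes are induced late, around the time of puparium formation, so glue and Eig71E transcripts together place larvae within the third instar.

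Values are log2 levels as deposited. The median probe set read 7.39 to 7.54 in the larval arrays and 5.55 to 5.62 in the disc arrays. A step of 1 is a 2-fold difference. Jarid2 followed its labels, with 4.19 and 4.26 in Jarid2 mutant larvae, 9.34 and 9.53 in larvae labelled E(z) RNAi, and 9.63 and 9.48 in control larvae. Both readings of Jarid2 mutant larvae lay below the lower quartiles of their arrays, 5.09 and 5.13. In disc cells it read 7.64 and 6.80 in Jarid2 mutants, against 10.14 and 10.10 in controls, so the difference was -2.90 ± 0.28 there and -5.33 ± 0.13 in larvae. The Jarid2 reading of mutant disc cells stayed above the median of their arrays, which limits the disc comparison. The E(z) probe set went against its label, with 9.25 and 9.56 in larvae labelled E(z) RNAi, against 8.53 and 8.31 in control larvae. Directions given for that group thus describe arrays whose E(z) reading was not lowered. The positions of both probe sets relative to the RNAi target and the insertion are not known here. Of 11 measured eye-antennal disc genes none lay below the lower quartile in any disc array, and their mean level was between 10.92 and 11.38 there. The labels do not say that the 2 samples of a group came from separate cultures, so the p-values cover just the spread between the samples at hand, which may be technical.

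The salivary gland signal was strong in all 6 larval arrays. Sgs7, one of the small glue proteins, read 15.18 and 15.18 in Jarid2 mutant larvae, 15.10 and 15.11 in larvae labelled E(z) RNAi, and 15.18 and 15.18 in control larvae. It was the brightest or second brightest of all probe sets in every larval array. Sgs5 read between 14.94 and 15.03, Sgs3 between 14.71 and 14.98, Sgs8 between 14.67 and 14.89, and Sgs4 between 14.41 and 14.64. Sgs8, Sgs7 and Sgs3 lie close together on chromosome arm 3L, with CG33272 between the last pair, Sgs5 lies on 3R and Sgs4 on X. Each of these 5 lay within 0.762 of the brightest probe set of its array, at the top of the range of the array. How far a probe set still responds to a change in transcript at that brightness was not tested, so a small difference there does not show an equal level.

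**Figure D1:**
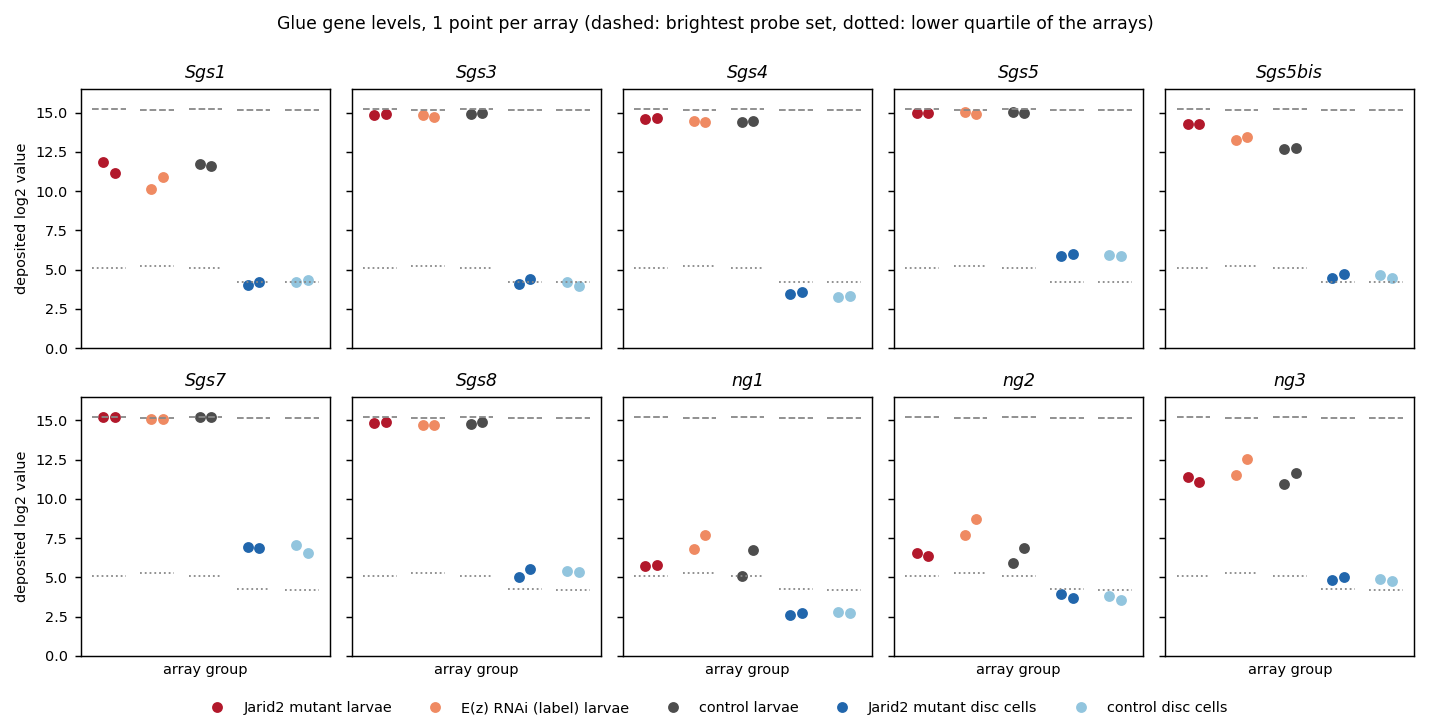
Deposited log2 value of each glue gene (y axis) in each of the 10 arrays, 1 point per array, with the 5 groups side by side on the x axis. Dashed lines give the mean brightest value and dotted lines the mean lower quartile of the arrays of a group. Sgs3, Sgs4, Sgs5, Sgs7 and Sgs8 sit close to the dashed line in larvae, Sgs5bis steps down across the Jarid2 mutant, labelled E(z) RNAi and control larvae, and all members are low in disc cells.

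Sgs1, a large mucin-like glue protein, and Sgs5bis, the paralogue that lies next to Sgs5 on 3R, were further below that ceiling. Sgs1 read 11.86 and 11.16 in Jarid2 mutant larvae, 10.15 and 10.87 in larvae labelled E(z) RNAi, and 11.73 and 11.61 in control larvae. Both arrays labelled E(z) RNAi were lower than the other 4. Sgs5bis read 14.28 and 14.28 in Jarid2 mutant larvae, 13.29 and 13.47 in larvae labelled E(z) RNAi, and 12.71 and 12.76 in control larvae. The 3 groups did not overlap for Sgs5bis. In Jarid2 mutant larvae Sgs5bis lay 0.94 and 0.95 below the brightest probe set of its array, close to the ceiling. How far it still responds at that brightness was not tested.

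The new glue genes lie in 1 cluster on X, and ng1 and ng2 are close copies of each other, so that their probe sets may share signal. ng1 read 5.73 and 5.76 in Jarid2 mutant larvae, 6.82 and 7.69 in larvae labelled E(z) RNAi, and 5.06 and 6.76 in control larvae. In the first control array ng1 lay below the array's lower quartile of 5.13. ng2 read 6.53 and 6.38 in Jarid2 mutant larvae, 7.70 and 8.73 in larvae labelled E(z) RNAi, and 5.91 and 6.87 in control larvae. For both genes the labelled E(z) RNAi arrays were above all other larval arrays, and the control arrays lay on either side of the Jarid2 mutant arrays. ng3 read 11.37 and 11.09 in Jarid2 mutant larvae, 11.52 and 12.54 in larvae labelled E(z) RNAi, and 10.97 and 11.61 in control larvae, with the labelled E(z) RNAi and control ranges overlapping.

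The first larval comparison took the arrays of Jarid2 mutants minus those of controls. The labels name a balancer besides the Jarid2 allele for the mutants, whereas the controls are given just as wild type. Whether the sampled mutants carried the balancer is not stated. The separate parts of the allele, any balancer, strain background and larval stage in the differences below were not tested. Among the glue genes Sgs5bis rose by 1.55 ± 0.12 (log2 difference ± SE, n = 2 arrays per group), or 2.92-fold, with an adjusted p of 0.0105 from limma. Its 95% interval ran from 1.24 to 1.85, and by its p-value it stood at position 43 of the 18769 probe sets. The other 9 members did not pass the test. Of all probe sets 0.821% passed in this comparison, against 1 of 10 glue genes. The call for Sgs5bis was lost when any 1 of the 4 arrays compared was left out, although the difference stayed between 1.52 and 1.57. The adjusted p was then 0.0670 without the first control array, 0.0636 without the second, 0.151 without the first Jarid2 mutant array and 0.140 without the second.

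Apart from Sgs5bis, the Sgs genes gave small differences between Jarid2 mutant and control larvae. Sgs1 averaged 11.51 ± 0.50 in Jarid2 mutant larvae and 11.67 ± 0.08 in control larvae (SD, n = 2), a difference of -0.17 ± 0.32. For Sgs3, Sgs4, Sgs5, Sgs7 and Sgs8 the differences lay between -0.07 and 0.15. Their 95% intervals lay between -0.38 and 0.44, which is a bound on the measured values and not on transcripts at the ceiling. The new glue genes differed by -0.17 ± 0.58 for ng1, 0.07 ± 0.43 for ng2 and -0.06 ± 0.38 for ng3. These intervals were wide, reaching from -1.60 to 1.26 for ng1. The spread behind them is pooled over all 6 larval arrays. With 1 array left out, the difference lay between -1.02 and 0.69 for ng1, between -0.41 and 0.55 for ng2 and between -0.39 and 0.26 for ng3, so no direction was read for these genes. The median difference of the 10 glue genes was -0.01, against 0.01 over all probe sets. Both arrays of one group lay beyond both of the other for 2 of 10 glue genes, Sgs4 and Sgs5bis, and for 35.9% of all probe sets.

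Larvae labelled E(z) RNAi were set against the same 2 control arrays. No glue gene passed the test over all probe sets, of which 0.900% did. At an unadjusted p under 0.05 there were 3 glue genes, Sgs1, Sgs5bis and ng2. ng2 averaged 8.21 ± 0.72 in larvae labelled E(z) RNAi and 6.39 ± 0.68 in control larvae (SD, n = 2), a difference of 1.83 ± 0.43 or 3.54-fold (adjusted p = 0.153). Sgs1 averaged 10.51 ± 0.51 in larvae labelled E(z) RNAi and 11.67 ± 0.08 in control larvae, a difference of -1.16 ± 0.32 (adjusted p = 0.199). Sgs5bis differed by 0.64 ± 0.12 (adjusted p = 0.111), with 2 of 2 labelled E(z) RNAi arrays above both control arrays. A fit of all 10 arrays, in which the less variable disc arrays share the spread, called Sgs5bis (adjusted p = 0.0305) and ng2 (adjusted p = 0.0417), and a prior with an intensity trend called Sgs5bis (adjusted p = 0.0245).

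The other new glue genes were also higher in the labelled E(z) RNAi arrays without passing the test, ng1 by 1.34 ± 0.58 (adjusted p = 0.342) and ng3 by 0.74 ± 0.38 (adjusted p = 0.415). Sgs3, Sgs4, Sgs5, Sgs7 and Sgs8 differed by between -0.17 and -0.00, with 95% intervals between -0.48 and 0.28. The 10 glue genes had a median difference of -0.02, against 0.06 over all probe sets. Arrays did not overlap for 7 of 10 glue genes, with ng1, ng2 and Sgs5bis higher and Sgs1, Sgs3, Sgs7 and Sgs8 lower in the labelled E(z) RNAi arrays. Over all probe sets the arrays did not overlap for 46.6%.

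**Figure D2:**
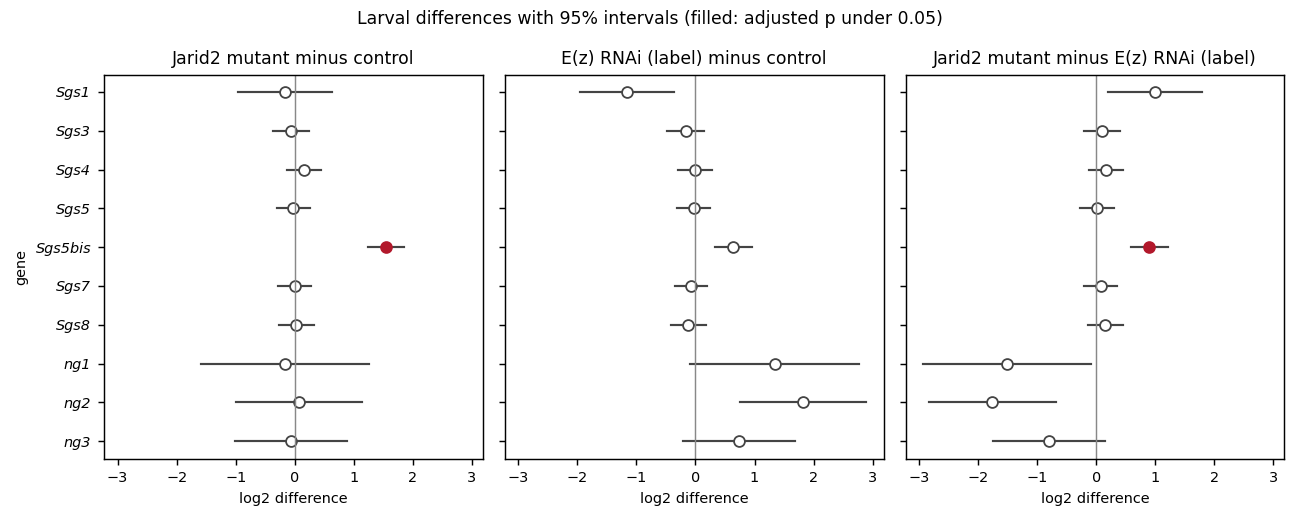
Log2 difference of each glue gene (x axis) in the 3 larval comparisons, with 95% intervals from limma as lines, n = 2 arrays per group. Filled points passed an adjusted p under 0.05, which held only for Sgs5bis, at 1.55 in Jarid2 mutant minus control larvae and at 0.90 in Jarid2 mutant minus labelled E(z) RNAi larvae.

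The larval perturbations were also compared directly. Sgs5bis was higher in Jarid2 mutant larvae than in larvae labelled E(z) RNAi by 0.90 ± 0.12, or 1.87-fold (adjusted p = 0.0408), where 1.34% of all probe sets passed. The order of its group levels was thus Jarid2 mutant, labelled E(z) RNAi and control, with the step between labelled E(z) RNAi and control larvae not past the test. The call was lost with any 1 of the 6 larval arrays left out (adjusted p between 0.0754 and 0.318) and in 4 of 9 other settings, where the difference stayed between 0.87 and 0.90. In Jarid2 mutant minus labelled E(z) RNAi larvae ng2 differed by -1.76 ± 0.43 (adjusted p = 0.131), ng1 by -1.51 ± 0.58 (adjusted p = 0.272) and ng3 by -0.80 ± 0.38 (adjusted p = 0.374). Sgs1 was 1.00 ± 0.32 higher in Jarid2 mutant larvae (adjusted p = 0.214). None of these 4 passed the test. Arrays did not overlap for 8 of 10 glue genes, against 48.6% of all probe sets.

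The new glue genes also differed between the 2 arrays of a group. In the arrays labelled E(z) RNAi the second array was above the first by 0.87 for ng1, 1.02 for ng2 and 1.02 for ng3. In control larvae the second array was above the first by 1.71, 0.96 and 0.65 for the same genes. In Jarid2 mutant larvae the array differences were 0.03, -0.16 and -0.28. The labelled E(z) RNAi minus control difference of ng1 was 0.49 without the first control array and 2.20 without the second. That of ng3 was 0.23 with array 2 of the labelled E(z) RNAi pair left out and 1.25 with array 1 left out, and 0.42 without the first control array. The Jarid2 mutant minus labelled E(z) RNAi difference of ng3 was -0.30 with array 2 of the labelled E(z) RNAi pair left out and -1.31 with array 1 left out.

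Late markers ran the other way in the same pairs of arrays. Of 8 measured Eig71E genes other than Eig71Ee, 8 were lower in the second than in the first array labelled E(z) RNAi, by a median of -2.36. In control larvae 7 of 8 were lower in the second array, by a median of -3.33, and Eig71Ej was higher by 0.41. Eig71Ed, the widest apart, read 4.29 and 4.32 in Jarid2 mutant larvae, 9.97 and 4.97 in larvae labelled E(z) RNAi, and 11.33 and 4.39 in control larvae. The Jarid2 mutant arrays were low for Eig71Ea, Eig71Ed and Eig71Ef, but Eig71Eg read 9.13 and 9.90 in them. By array, then, the first labelled E(z) RNAi and the first control array held late Eig71E transcripts that the second arrays held at far lower levels. Over all 18769 probe sets the array differences of these pairs had a correlation of -0.21. The listed genes thus do not stand for a pattern shared by the whole arrays. No Eig71E gene passed the test in a larval comparison, and the part of stage in the glue gene differences was not tested.

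**Figure D3:**
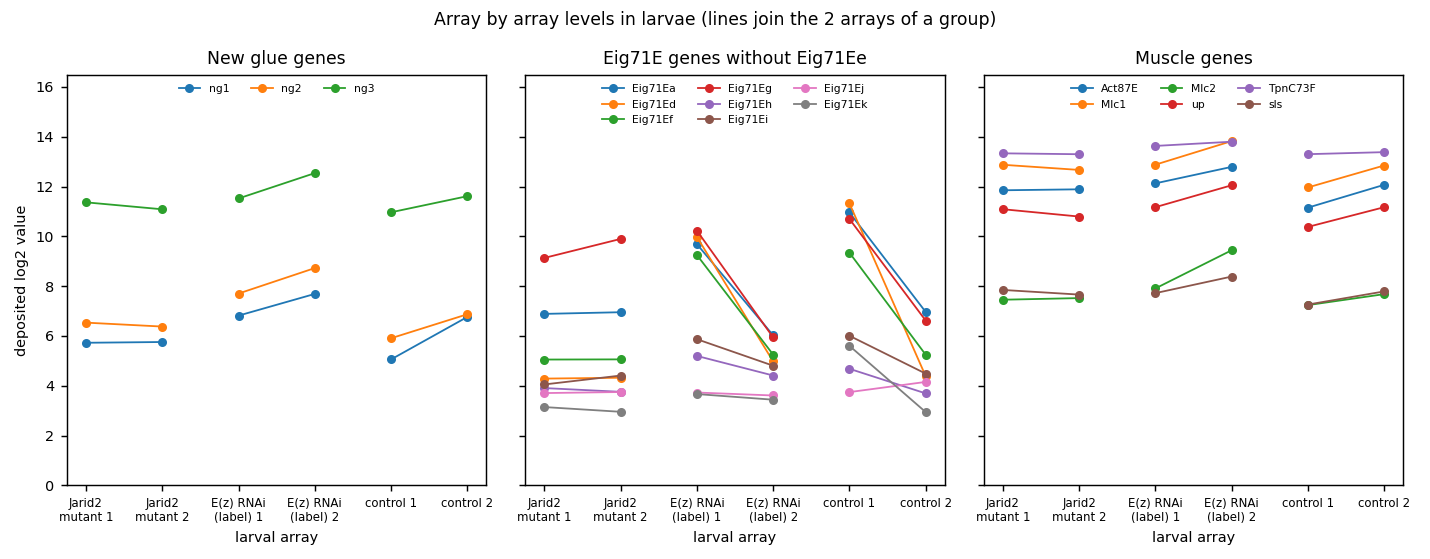
Deposited log2 values (y axis) of the 3 new glue genes, 8 Eig71E genes and 6 muscle genes in the 6 larval arrays (x axis), with lines joining the 2 arrays of a group. In the labelled E(z) RNAi and control pairs the new glue and muscle genes are higher in the second array while Eig71Ea, Eig71Ed, Eig71Ef and Eig71Eg are lower.

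Genes of other tissues also differed between the arrays of a group. All 6 measured muscle genes were higher in the second array labelled E(z) RNAi than in the first, by a median of 0.77, and all 6 were higher in the second control array, by a median of 0.66. The log2 of their summed level was 14.56 and 14.46 in Jarid2 mutant larvae, 14.75 and 15.33 in larvae labelled E(z) RNAi, and 14.14 and 14.61 in control larvae. None lay below the lower quartile of a larval array. Haemocyte genes were also mostly higher in the second array, with 6 of 8 in larvae labelled E(z) RNAi and 7 of 8 in controls. Midgut genes were higher for 8 of 11 in both pairs. Eye-antennal disc genes were higher for 10 of 11 in the labelled E(z) RNAi pair but lower for 11 of 11 in the control pair. The share over all probe sets is not given here, so no link particular to muscle is read. The part of these tissues in the glue gene differences was not tested.

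Across the 6 larval arrays ng1, ng2 and ng3 varied together, with Pearson's r between 0.923 and 0.948 for their pairs. Sgs7 and Sgs8 gave r = 0.858 and Sgs1 and Sgs7 gave r = 0.865, while ng2 and Sgs7 gave r = -0.864. These coefficients describe 6 arrays of 3 groups, so that differences between groups and between arrays both enter them, and those of the ceiling genes rest on small differences. The 8 genes whose profile was most like the mean glue profile over those arrays, among 2728 with a range of at least 1, were sls, Mlc1, CG17145, up, Mf, Mlp84B, Glyp and Act87E, with r between 0.969 and 0.996. Of these, 4 are on the muscle list. Members were centred but not scaled for the mean glue profile. The wide-ranging ng1 and ng2 thus weigh most in it and the ceiling genes least, so the likeness does not describe the Sgs genes at the ceiling.

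A list of salivary gland regulators and enzymes, which also holds ng4 and Eig71Ee, was chosen with earlier results known. It gave 0 of 9 measured members past the test in both comparisons with control larvae. fkh, the forkhead factor of the salivary gland, read 8.72 and 8.87 in Jarid2 mutant larvae, 8.87 and 8.56 in larvae labelled E(z) RNAi, and 9.06 and 8.57 in control larvae, ranges that overlapped. sage, the salivary gland bHLH factor, read 10.36 and 10.53 in Jarid2 mutant larvae, 10.69 and 10.78 in larvae labelled E(z) RNAi, and 10.94 and 10.92 in control larvae. Its difference was -0.49 ± 0.12 for Jarid2 mutant larvae (adjusted p = 0.254). PH4alphaSG1, a salivary gland prolyl hydroxylase, read 4.53 and 4.37 in Jarid2 mutant larvae, 6.74 and 7.39 in larvae labelled E(z) RNAi, and 6.01 and 6.67 in control larvae. Its difference between Jarid2 mutant and control larvae was -1.88 ± 0.30 (adjusted p = 0.0806), with both mutant readings below the lower quartile of their arrays. It passed the test in the direct comparison with larvae labelled E(z) RNAi.

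Eig71Ee, a mucin-like gene of the glue whose symbol places it with the Eig71E cluster, read 14.53 and 14.58 in Jarid2 mutant larvae, 14.09 and 13.82 in larvae labelled E(z) RNAi, and 14.69 and 14.64 in control larvae. Both labelled E(z) RNAi arrays were the lowest, with a difference from controls of -0.71 ± 0.14 (adjusted p = 0.109). Of 11 measured genes of the ecdysone receptor and early response, 0 passed in either comparison with control larvae. They varied within groups, so the lack of calls does not show equal levels. In the second array 10 of 11 were higher for Jarid2 mutant larvae. There 8 of 11 were lower for labelled E(z) RNAi and 9 of 11 for control larvae. Eip78C read 10.69 and 11.55 in Jarid2 mutant larvae, 11.69 and 10.54 in larvae labelled E(z) RNAi, and 11.85 and 9.05 in control larvae. EcR, the ecdysone receptor, differed by -0.29 ± 0.28 in Jarid2 mutant larvae and by -0.66 ± 0.28 in larvae labelled E(z) RNAi. Of 10 measured ecdysone biosynthesis genes and 15 late ecdysone-induced genes, 0 passed in either. Of 5 measured fat body genes, 0 passed in either. Lsp2, Fbp1 and Fbp2 read between 14.82 and 15.07 in all 6 larval arrays, at the ceiling. Below it, apolpp differed by -0.25 ± 0.12 in Jarid2 mutant larvae and by -0.37 ± 0.12 in larvae labelled E(z) RNAi, and Lip3 by -0.98 ± 0.29 and by -1.71 ± 0.29 (adjusted p = 0.337 and 0.0828).

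Disc cells gave the level of the glue genes outside the salivary gland. Sgs4 read 3.44 and 3.57 in Jarid2 mutant disc cells, against 3.25 and 3.32 in control disc cells, and ng1 read 2.59 and 2.72 against 2.81 and 2.72 in the same order. These values lay below the lower quartile of each disc array, which was between 4.20 and 4.27. Sgs7 was the highest reading there, with 6.90 and 6.90 in Jarid2 mutant disc cells, against 7.07 and 6.57 in control disc cells, and Sgs5 read 5.85 and 6.01 against 5.91 and 5.86. Those 2 genes stayed above the array medians by between 0.23 and 1.46, and the remaining members lay below the median in every disc array. Whether Sgs7 and Sgs5 signal in the disc arrays came from glue transcript was not tested.

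The Jarid2 comparison in disc cells called 0 of 10 glue genes with limma, and 0 had an unadjusted p under 0.05, where 2.28% of all probe sets passed. Differences lay between -0.16 for Sgs1 and 0.22 for Sgs4, with a median of 0.06, equal to the 0.06 over all probe sets. Arrays did not overlap for 3 of 10, against 52.6% of all probe sets. For Sgs5bis the disc difference was 0.05 ± 0.12. In disc cells it read 4.50 and 4.72 in mutants and 4.64 and 4.48 in controls, between 0.28 and 0.44 above the lower quartile of its array. In a fit of all 10 arrays the Jarid2 difference in discs minus that in larvae was -1.50 ± 0.17 for Sgs5bis (adjusted p = 0.00309). At such low disc readings this value repeats the larval difference and does not show that the response to Jarid2 differs between tissues. Among the other 9 glue genes no difference of discs minus larvae passed, and 2.89% of all probe sets did. In the comparison within disc cells all 8 measured haemocyte genes fell in Jarid2 mutant disc cells, by a median of 5.66 on the log2 scale. Of 10 measured ecdysone biosynthesis genes 3 passed there, all higher, namely spok by 2.71 ± 0.15, sad by 1.21 ± 0.09 and nvd by 0.84 ± 0.10. The part of either gene list in the glue gene values was not tested.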

How the data were processed

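The authors deposited log2 expression values per probe set in 1 table, with limma 3.4.3 named in the submitters' processing notes. How they corrected background, summarised and normalized is not given in the sources used. The 183 control probe sets were left out, which left 18769. Probe sets were named from the platform annotation, which gave 1 gene for 13647, several for 402 and none for 4720.

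Group means were fitted in limma 3.58.1 (lmFit, eBayes; R 4.3.3) on the 6 larval arrays for larval comparisons, the 4 disc arrays for discs and all 10 arrays for the difference between tissues, without covariates. Larval arrays were fitted apart because they vary more than disc arrays. P-values were two-sided and adjusted by Benjamini-Hochberg over 18769 probe sets, with calls under 0.05. The fit was tested on simulated data. Figures were drawn with matplotlib 3.10.9.

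Members, lists and tests were chosen with earlier results of these data known. All members were named, with up to 4 genes of each other list by smallest p considered and the 8 most like the mean glue profile. Further list genes, among them fkh, Eip78C, Eig71Ea, Eig71Ed, Eig71Ef and Eig71Eg, were named outside that rule with the values known. Alternatives were other spreads, normalizations, filters, priors, weights, a replicate block and each array left out. Promoter motifs were not analysed here.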

Additional observations from a re-analysis of the deposited data

Results flagged for a closer look

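The Jarid2 difference of Sgs5bis in discs minus that in larvae was -1.50 ± 0.17 (adjusted p = 0.00309, limma, n = 2 arrays per group). Disc readings of Sgs5bis lay between 0.28 and 0.44 above the lower quartile of their arrays, so low that a change in disc cells may not have been detectable. The value therefore repeats the larval difference of 1.55 and does not show that disc cells and larvae respond differently. Sgs5bis was higher in 2 of 2 Jarid2 mutant larval arrays than in both control larval arrays, whereas the 2 arrays of each disc group overlapped. The value lay between -1.61 and -1.35 over 7 other settings and with each of the 10 arrays left out.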

How the results depend on the processing

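The count of glue genes called was 1 for Jarid2 mutant against control larvae in all 9 other settings, and between 0 and 1 with 1 array left out. For labelled E(z) RNAi against control larvae it was 2 when all 10 arrays shared the spread (Sgs5bis and ng2), 1 with an intensity trend, 0 in the other 7 settings and 0 with each array left out. For the direct larval comparison, with 1 as reported, it was 2 with all 10 arrays, and 0 with only the 2 groups, with median centring, without the dimmest 30% of probe sets, with the replicate block, and with each array left out. It stayed at 0 for disc cells and at 1 for the difference between tissues in every setting run. Counts over all probe sets moved more. For Jarid2 mutant larvae 154 became 451 with all 10 arrays, 232 with median centring and 65 with the replicate block, and between 5 and 112 with 1 array left out. For labelled E(z) RNAi 169 became 769, 2 in a fit of both groups alone, 97 without dim probe sets and 37 with the block, and between 1 and 28 with 1 array left out. For the direct comparison 252 became 1146, 142 without dim probe sets, 391 with a trend, 426 with array weights and 45 with the block, and between 5 and 185 with 1 array left out. For discs 428 became 768 with a trend and between 68 and 408 with 1 array left out, and for the tissue difference 542 became between 293 and 533. The cause was not tested beyond the fewer samples or other spread that each setting names. Same-numbered larval arrays did not deviate together, and the main fits did not pair them. Correlations across probe sets were -0.42 for control and Jarid2 mutant larvae and -0.21 for control and labelled E(z) RNAi larvae. The value for Jarid2 mutant and labelled E(z) RNAi larvae was 0.01. Differences within groups that run opposite ways can hide a shared handling, so this check cannot show whether same-numbered samples were handled together. With 2 arrays per group, the precision for the new glue genes is limited most, and the ceiling limits Sgs3, Sgs4, Sgs5, Sgs7 and Sgs8. It may also limit Sgs5bis in Jarid2 mutant larvae.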

Other observations

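A few genes of the feeding midgut passed the test in larvae. Jon74E, a Jonah serine protease, rose in both comparisons with control larvae, by 1.78 ± 0.20 in Jarid2 mutant larvae (adjusted p = 0.0264) and by 1.70 ± 0.20 in larvae labelled E(z) RNAi (adjusted p = 0.0304). Of 11 measured midgut genes, 2 rose (Jon74E and Amyrel) and 1 fell (Jon99Ci) in Jarid2 mutant larvae, and 2 rose (Jon74E and LysX) in larvae labelled E(z) RNAi, where 0.821% and 0.900% of all probe sets passed. Both comparisons share the control arrays. NimC1, a phagocytosis receptor of haemocytes, read 9.05 and 8.58 in Jarid2 mutant larvae, 8.92 and 8.82 in larvae labelled E(z) RNAi, and 10.28 and 10.39 in control larvae. It fell in each comparison (adjusted p = 0.0333 and 0.0388), and the other 7 of 8 haemocyte genes did not pass. Their differences ran both ways, between -0.80 for Hml and 1.77 for PPO1 in Jarid2 mutant larvae, and between -0.35 for He and 1.28 for PPO1 in larvae labelled E(z) RNAi.

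Genes next to the glue genes in the RefSeq gene order were looked up after the values had been seen. Pig1, which lies next to Sgs4 on X, read 11.86 and 11.43 in Jarid2 mutant larvae, 9.81 and 11.17 in larvae labelled E(z) RNAi, and 10.82 and 11.44 in control larvae. Its lowest array was the first labelled E(z) RNAi array, which was also the lowest for Sgs1. CG14265, next to ng2, read 12.70 and 11.98 in Jarid2 mutant larvae, 12.10 and 12.81 in larvae labelled E(z) RNAi, and 12.41 and 12.84 in control larvae. CG7606, next to Sgs5, read 14.10 and 14.21 in Jarid2 mutant larvae, 13.96 and 14.01 in larvae labelled E(z) RNAi, and 13.99 and 14.04 in control larvae. Hmx, the homeobox gene on the other side of Sgs5bis, differed by 0.05 ± 0.13 between Jarid2 mutant and control larvae, against 1.55 for Sgs5bis and 0.14 ± 0.12 for CG7606. At 13.99 to 14.21 in those arrays CG7606 was also close to the ceiling, so its small difference does not show an equal level. None of the 9 measured neighbours passed the test in a larval comparison. In all 4 disc arrays Pig1 and CG14265 read between 4.23 and 4.72, against between 9.81 and 12.84 in the larval arrays.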
